A study of Mus musculus with 3 samples.

Results

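The YAP/TEAD genes described here are 10 listed genes of the Hippo pathway, its nuclear effectors and their targets: Yap1, Wwtr1, Tead1, Tead2, Lats2, Amotl2, Ajuba, Ccn1 (also called Cyr61), Ccn2 (also called Ctgf) and Ankrd1. They were chosen by name, with earlier results of these data known, and matched by Entrez Gene identifier. They are 10 of the 17209 genes listed in at least 1 of the 3 expression tables. The cells were mouse epiblast stem cells (EpiSCs) of strain 129, labelled passage 1, pluripotent cells that resemble the epiblast after implantation. All 3 groups came from cultures kept on gelatin in serum with both inhibitors, IWR1 and Y27632 (labelled Y27). The NT library was made after both inhibitors had been left out overnight, the IWR1 library after 12 h with 2 µM IWR1, and the Y27 library after 12 h with 0.5 µM Y27. IWR1 inhibits tankyrases and so dampens Wnt signalling, and Y27632 inhibits kinases that drive actomyosin contraction. The dose of Y27 is given as labelled and is low for this inhibitor. With 1 library in each group, the differences below were not checked in replicates, and none has a p-value.

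In the Hippo pathway, the kinases Stk3 and Stk4 with their cofactor Sav1 activate the Lats kinases, which together with Mob1 phosphorylate the coactivators Yap1 and Wwtr1 (the TAZ protein) and keep them out of the nucleus. Unphosphorylated Yap1 and Wwtr1 enter the nucleus, bind the TEAD DNA-binding proteins and switch on genes such as Ccn1, Ccn2, Ankrd1, Amotl2, Lats2 and Ajuba. Of these, Amotl2 and Lats2 act against YAP in return. Cell tension favours nuclear YAP in many cell types, and tankyrases are known to promote the breakdown of angiomotin proteins, which bind and hold back YAP. Phosphorylation, protein amount and location were not measured here: the data are transcript levels.

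The expected counts, estimated reads per gene, totalled 5767550, 5607725 and 5459332 for NT, IWR1 and Y27. The 8 epiblast markers were listed in all 3 libraries, with summed FPKM (reads per kilobase of transcript, scaled to library size) of 1658, 1806 and 1474 in NT, IWR1 and Y27. Without Pou5f1, the highest of them, the sum was 588, 823 and 586. Single markers differed in direction, with 5 of the 8 higher and 3 lower in IWR1 than in NT. Markers of other cells were low: the 10 fibroblast genes summed to 26.3, 16.8 and 13.5 FPKM, with Lum at 0 throughout, Postn in IWR1 and Dcn in Y27, and the 7 extraembryonic endoderm genes to 13.3, 9.57 and 12.8 FPKM, with Sox17 and Afp at 0 throughout, Sox7 in NT and Gata4 in IWR1. The 7 trophoblast genes, which include Cdx2 and Eomes that streak cells also express, summed to 75.7, 34.3 and 97.6 FPKM, with Elf5 at 0 throughout. In such bulk samples, fewer cells of a type and less RNA per cell cannot be told apart. As a check of the treatments, Axin2, a Wnt-induced feedback gene, was at 173, 39.5 and 167 CPM (counts scaled to library size) in NT, IWR1 and Y27, T, the brachyury gene, at 1688, 364 and 1652 CPM, and Tagln, an actin-binding target of serum response factor, at 244, 173 and 73.1 CPM.

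Per transcript length, the members spanned from abundant to almost undetected. In NT the deposited FPKM was highest for Ccn1 at 244, followed by Amotl2 at 172, Tead2 at 165, Ajuba at 111 and Yap1 at 76.4. Tead1 at 22.7, Wwtr1 at 19.5 and Lats2 at 9.19 formed a middle group, and Ankrd1 at 0.39 and Ccn2 at 0.29 were at the bottom. The 95% counting intervals of Amotl2 (166 to 177) and Tead2 (158 to 172) overlapped, as did those of Ankrd1 and Ccn2, and those of the other neighbours in this order did not. Ccn1 lay above 98.2% of the genes listed in NT, and Lats2 above 58.0%. In IWR1 the order at the top was different, with Tead2 at 134 FPKM, Ccn1 at 119, Ajuba at 82.1, Yap1 at 80.4 and Amotl2 at 70.3, followed by Tead1 at 26.2, Wwtr1 at 18.7 and Lats2 at 8.50, where the intervals of Ajuba and Yap1 overlapped. In Y27 it was Ccn1 at 159, Amotl2 at 144, Tead2 at 140, Ajuba at 91.4, Yap1 at 79.4, Tead1 at 32.8, Wwtr1 at 19.96 and Lats2 at 11.9, where those of Amotl2 and Tead2 overlapped. Ccn2 and Ankrd1, often used as readouts of YAP activity, had 0 to 5 reads in each library and did not reach the mean of 1 CPM asked of genes that were compared, which left 8 of the 10 members. All 8 were above that level in every library.

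**Figure D1:**
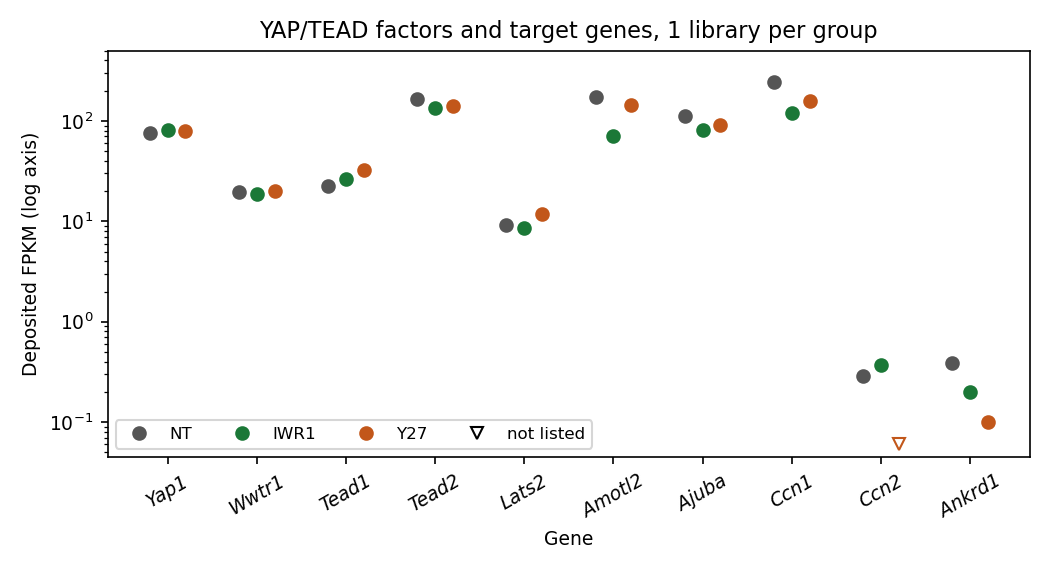
Deposited FPKM (log axis) of the 10 genes in the NT (grey), IWR1 (green) and Y27 (orange) libraries, 1 point per library; the open triangle marks Ccn2, which was not listed in Y27. Ccn1 runs from 244 in NT to 119 in IWR1, and Ccn2 and Ankrd1 lie below 0.4 in all libraries.

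Of the 8 members compared, 2 (Amotl2 and Ccn1) were at least 2-fold lower in IWR1 than in NT, where 2.25% of the 12955 genes compared were, and 0 were at least 2-fold higher, against 2.28% of all genes. In Y27 over NT, 0 of 8 passed 2-fold in either direction, against 1.34% of all genes on the lower side and 5.58% on the higher. Regardless of size, 6 of 8 were below NT in IWR1 and 6 of 8 in Y27, against 50.3% and 51.9% of all genes. Of the 6 in Y27, Yap1 and Wwtr1 were close to NT. They lay above it with scaling by library total and on the deposited FPKM. The median log2 difference, log2((CPM + 1)/(CPM + 1)), was -0.21 over the 8 members in IWR1 and -0.17 in Y27, against -0.0035 and -0.023 over all genes compared. By the 95% counting interval of the fold, which covers counting error only, 4 of 8 were lower and 1 higher in IWR1, against 19.1% and 20.3% of all genes, and 4 of 8 were lower and 1 higher in Y27, against 22.9% and 21.9%. The members concerned were the same in both: Tead2, Amotl2, Ajuba and Ccn1 lower, and Tead1 higher. Both comparisons use the same NT library, so this likeness is not independent. Log2 differences of all genes followed transcript length and GC content. With that trend removed, 149 genes were at least 2-fold higher and 285 lower in IWR1 over NT, against 295 and 292 before, and 180 higher and 172 lower in Y27 over NT, against 723 and 173 before. Trend-removed values are therefore given beside each member they shift. The median of trend-removed values over all genes was -0.034 in IWR1 over NT and -0.070 in Y27 over NT.

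**Figure D2:**
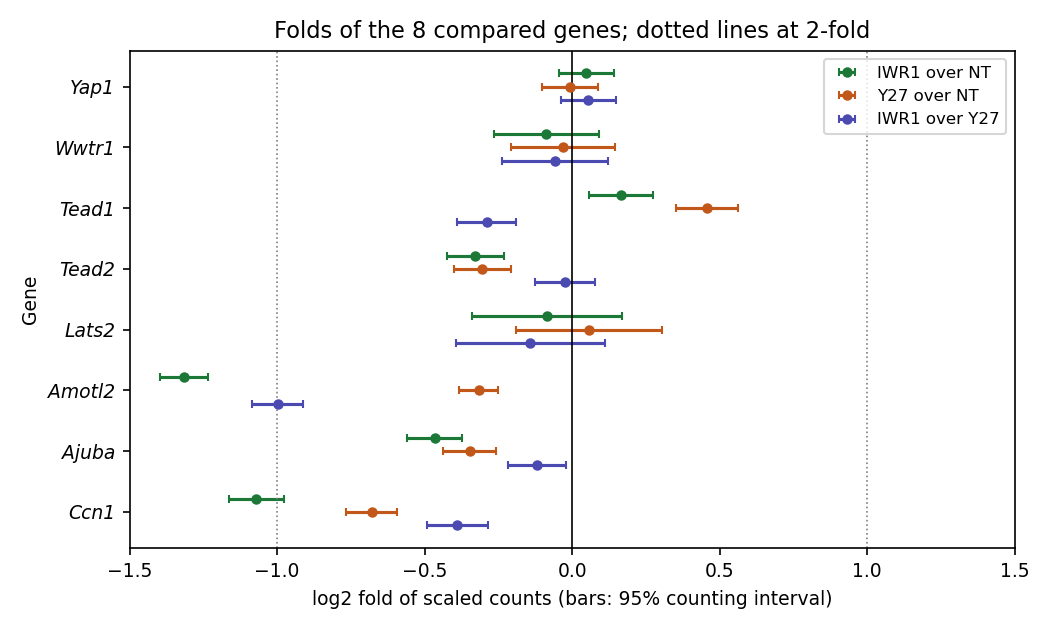
Log2 fold of scaled counts for the 8 compared genes in IWR1 over NT (green), Y27 over NT (orange) and IWR1 over Y27 (blue), with 95% counting intervals as bars and dotted lines at 2-fold. Amotl2 and Ccn1 lie past the lower line in IWR1 over NT, and Yap1, Wwtr1 and Lats2 have intervals that span 0 in all 3 comparisons.

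Transcripts of the coactivators differed little. Yap1, the main Hippo effector, was at 328 CPM in NT, 339 CPM in IWR1 and 326 CPM in Y27. Its fold was 1.03 (0.969 to 1.10) in IWR1 over NT and 0.995 (0.932 to 1.06) in Y27 over NT. Wwtr1, the paralogue that encodes TAZ, was at 95.9, 90.2 and 93.9 CPM in NT, IWR1 and Y27. Its folds over NT were 0.941 (0.832 to 1.06) and 0.979 (0.867 to 1.11). The Wwtr1 value rests on the scale used: with the length and GC trend removed its log2 difference moved from -0.09 to -0.41 in IWR1 and from -0.03 to -0.52 in Y27. Its transcripts have a GC content of 43.9%, against a median of 50.5% for the genes compared, and its count in IWR1 was fractional. Per length, Yap1 was the more abundant coactivator by 3.91 times in NT, 4.30 times in IWR1 and 3.98 times in Y27.

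Tead2, the TEAD gene of early embryonic cells, made up most of the TEAD transcripts. Its share of the summed FPKM of Tead1 to Tead4 was 82.6% in NT, 78.9% in IWR1 and 77.1% in Y27, with Tead1 at 11.4%, 15.4% and 18.1%. Tead2 was at 357 CPM in NT, 284 CPM in IWR1 and 289 CPM in Y27, so both treated libraries were below NT and close to each other. It was 1.26-fold lower (1.18 to 1.34) in IWR1 and 1.23-fold lower (1.16 to 1.32) in Y27, and its log2 differences of -0.33 and -0.30 became -0.18 and -0.12 with the trend removed. Tead1 was at 231, 259 and 316 CPM in NT, IWR1 and Y27, lowest in NT and highest in Y27. The fold over NT was 1.12 (1.04 to 1.21) in IWR1 and 1.37 (1.28 to 1.48) in Y27. This difference did not hold once the trend was removed: the log2 differences of 0.17 and 0.45 became -0.14 and -0.03. The medians over all genes on that scale were -0.03 and -0.07. Tead1 has the longest transcript of the members, 9807 bases in NT, and a GC content of 46.9%, and its counts were partly fractional, which happens when reads match more than 1 gene. The ratio of Tead2 to Tead1 FPKM was 7.27 in NT, 5.12 in IWR1 and 4.25 in Y27.

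**Figure D3:**
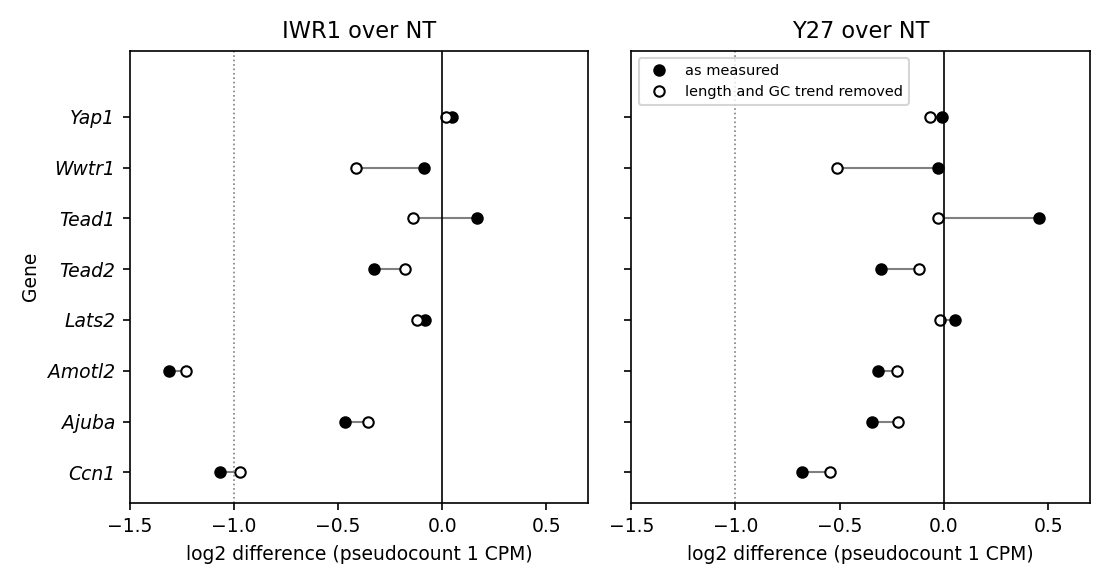
Log2 differences (pseudocount 1 CPM) of the 8 compared genes in IWR1 over NT (left) and Y27 over NT (right), as measured (filled) and with the trend on length and GC content removed (open). Tead1 moves from 0.45 to -0.03 in Y27 and Wwtr1 from -0.03 to -0.52, while Amotl2 stays at -1.31 and -1.23 in IWR1.

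The genes described next are regulators of YAP or of the Lats kinases, and YAP targets. The 250 bases before their annotated starts are shown because TEAD proteins recognise a short motif there. RefSeq promoter windows (GRCm38.p6) were matched for 8 of the 10 members, with no entry for Tead1 and Ccn2. The coordinates belong to that build, while the expression files name mm8. The TEAD motif GGAATG was searched on both strands, where the other strand reads CATTCC, along with the TCF/LEF motif CTTTGAT of Wnt effectors (other strand ATCAAAG), the AP-1 motif TGANTCA and the CArG box of serum response factor. Capitals mark matches, and each sequence runs 5′ to 3′ in the direction of the gene.
Amotl2 (GRCm38.p6, chr9:102717554-102717803, plus strand): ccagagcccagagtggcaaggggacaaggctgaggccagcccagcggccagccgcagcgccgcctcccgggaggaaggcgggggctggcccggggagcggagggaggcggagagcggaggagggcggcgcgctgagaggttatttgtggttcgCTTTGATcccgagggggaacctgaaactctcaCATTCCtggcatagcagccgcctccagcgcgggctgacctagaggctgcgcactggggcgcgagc
Ajuba (GRCm38.p6, chr14:54577662-54577911, minus strand): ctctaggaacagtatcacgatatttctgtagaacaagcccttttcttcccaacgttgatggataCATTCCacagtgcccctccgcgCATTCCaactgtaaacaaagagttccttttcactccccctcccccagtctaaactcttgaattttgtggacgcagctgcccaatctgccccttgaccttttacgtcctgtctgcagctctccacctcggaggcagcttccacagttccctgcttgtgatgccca
Ccn1 (GRCm38.p6, chr3:145649986-145650235, minus strand): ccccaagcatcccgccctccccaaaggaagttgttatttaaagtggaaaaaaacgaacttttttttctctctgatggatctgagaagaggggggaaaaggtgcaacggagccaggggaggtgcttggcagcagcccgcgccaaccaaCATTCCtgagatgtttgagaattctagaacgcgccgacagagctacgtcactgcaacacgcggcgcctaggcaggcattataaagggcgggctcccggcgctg
Ankrd1 (GRCm38.p6, chr19:36119845-36120094, minus strand): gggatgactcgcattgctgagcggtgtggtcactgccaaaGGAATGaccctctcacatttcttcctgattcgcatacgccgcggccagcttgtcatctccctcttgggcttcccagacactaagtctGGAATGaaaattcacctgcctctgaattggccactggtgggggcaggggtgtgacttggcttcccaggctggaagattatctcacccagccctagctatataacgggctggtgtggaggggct
Wwtr1 (GRCm38.p6, chr3:57575911-57576160, minus strand): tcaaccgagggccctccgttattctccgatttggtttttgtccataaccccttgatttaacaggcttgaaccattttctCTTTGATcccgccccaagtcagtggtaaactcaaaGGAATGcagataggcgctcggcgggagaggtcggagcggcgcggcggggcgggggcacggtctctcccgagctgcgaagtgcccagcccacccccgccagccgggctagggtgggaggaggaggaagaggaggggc

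GGAATG or CATTCC was found before 6 of the 8 matched members, Yap1, Wwtr1, Ccn1, Amotl2, Ankrd1 and Ajuba, and before 12.6% of the 32851 windows of the same length in the table. Ajuba and Ankrd1 had 2 matches each. The match in Ccn1 starts 103 bases before the start site and that in Amotl2 65 bases before it. CTTTGAT was found before Amotl2, at 97 bases, and in both overlapping windows of Wwtr1, against 3.21% of all windows. Amotl2 and Wwtr1 thus hold the same pair of motifs. Their log2 differences in IWR1 over NT were -1.31 and -0.09, or -1.23 and -0.41 with the length and GC trend removed. A link between these motifs and the differences was not tested. No AP-1 match and no CArG box lay in the members' windows, against 6.75% and 1.47% of all windows, and Tead2 and Lats2 had no match of any kind. A match describes the letters of this window and is not evidence of binding.

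**Figure D4:**
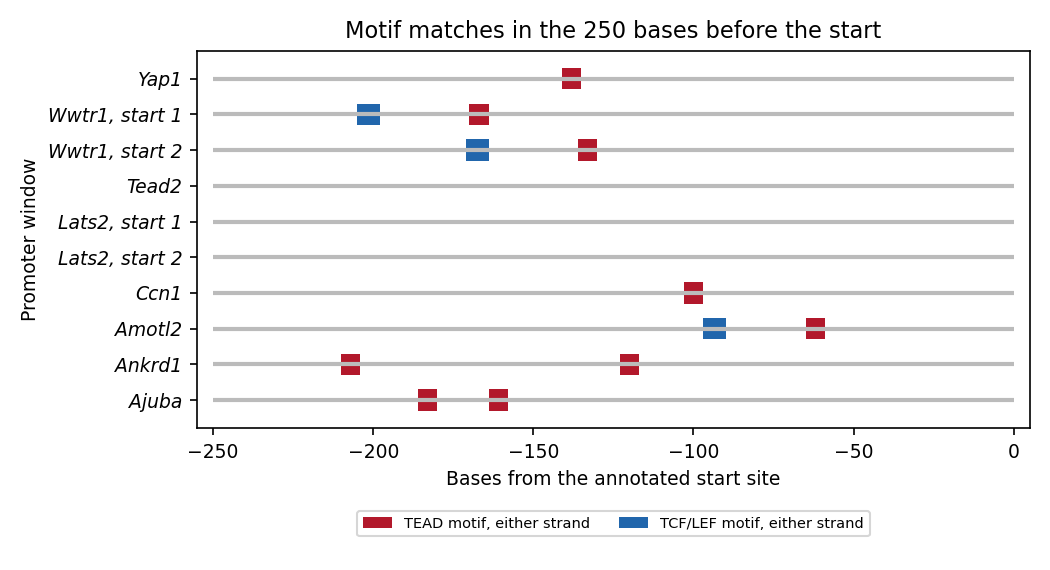
Matches to the TEAD motif (red) and the TCF/LEF motif (blue) on either strand in the 250 bases before the annotated start, drawn by distance from the start site for each of the 10 windows of 8 genes. The TEAD match of Amotl2 begins 65 bases and that of Ccn1 103 bases before the start, and Tead2 and Lats2 have none.

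Among the regulators of YAP or of the Lats kinases, Amotl2 had the largest difference of any member in IWR1 over NT. It encodes an angiomotin that binds YAP at junctions and is itself a YAP target. Amotl2 was at 741 CPM in NT, 298 CPM in IWR1 and 595 CPM in Y27: IWR1 was far below the others, and Y27 lay between. It was 2.49-fold lower (2.35 to 2.64) in IWR1 than in NT, with 1.15% of the genes compared further down, and 1.25-fold lower (1.19 to 1.30) in Y27. Its log2 differences over NT of -1.31 and -0.32 became -1.23 and -0.22 with the trend removed. In IWR1 over Y27, which does not use NT, Amotl2 was 2.00-fold lower (1.88 to 2.12). The log2 difference there was -0.996, just short of the 2-fold threshold, which it passed with scaling by library total or by median of ratios, on the deposited FPKM, and with the trend removed (-1.01). Its promoter window, shown above, holds a TEAD and a TCF/LEF match.

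Ajuba, a LIM-domain adaptor that binds and restrains the Lats kinases, was at 401, 290 and 315 CPM in NT, IWR1 and Y27. It was 1.38-fold lower (1.30 to 1.47) in IWR1 and 1.27-fold lower (1.19 to 1.35) in Y27, and the log2 differences of -0.47 and -0.35 became -0.36 and -0.22 with the trend removed. Its counts were partly fractional in all libraries. Lats2, the kinase that YAP induces and that phosphorylates YAP, was at 47.6, 44.8 and 49.5 CPM, with 269, 251 and 276 reads, and its folds over NT of 0.942 (0.790 to 1.12) and 1.04 (0.875 to 1.23) were within counting error. On the per-length scale Lats2 looked different, at 9.19 FPKM in NT, 8.50 in IWR1 and 11.9 in Y27, a ratio of 1.29 for Y27 over NT. The files list 2 transcripts for Lats2, and the length they assign to the gene was 5020 bases in NT, 5213 in IWR1 and 4226 in Y27, so that its FPKM moved with the assigned length while its count did not. Whether the transcripts were used differently was not tested.

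Of the secreted CCN targets, Ccn1 was lower in both treated libraries. It encodes a matricellular protein that signals through integrins, and is a direct YAP/TEAD target in many cell types. Ccn1 had 2858 reads in NT, 1348 in IWR1 and 1761 in Y27, or 506, 241 and 316 CPM. NT was highest and IWR1 lowest. The gene was 2.10-fold lower (1.97 to 2.24) in IWR1 than in NT, with 1.84% of the genes compared further down, and 1.60-fold lower (1.51 to 1.70) in Y27, with 3.84% further down. Between the treated libraries it was 1.31-fold lower (1.22 to 1.41) in IWR1. With the trend removed, the log2 difference in IWR1 of -1.07 became -0.97, which ends the 2-fold call, and that in Y27 of -0.68 became -0.54. Fibroblasts also express Ccn1, and the summed FPKM of the fibroblast markers was also below NT in both treated libraries, at 26.3, 16.8 and 13.5 in NT, IWR1 and Y27, of which Col1a1 alone gave 16.95, 11.5 and 6.67. Without Col1a1 the sum was 9.38, 5.35 and 6.84, lowest in IWR1 as for Ccn1, but the single markers differed. Pdgfrb (2.47, 0.36 and 2.25) and Pdgfra (0.71, 0.24 and 0.88) were lowest in IWR1. Col1a2 (2.77, 2.30 and 2.01), Thy1 (1.59, 1.23 and 1.15) and Twist1 (1.15, 0.86 and 0.33) were lowest in Y27, as was Col1a1. The part of such cells in the Ccn1 values was not tested.

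Ccn2, the sister gene most often measured beside Ccn1, had 4 reads in NT, 5 in IWR1 and was not listed in Y27, where a count of 0 allows up to 0.538 CPM (3 counts). Ankrd1, a muscle ankyrin repeat gene widely used as a YAP readout, had 4, 2 and 1 reads. Its ratio of IWR1 to NT was 0.505 with an interval of 0.0457 to 3.52, so no difference of Ankrd1 could be detected at this depth. Ankrd1 has 2 TEAD matches in its window, like Ajuba, which was at 401 CPM in NT. Of the other CCN genes, Ccn4, a Wnt-induced member, was at 44.9, 19.8 and 21.7 CPM, 2.27-fold lower (1.81 to 2.86) in IWR1 and 2.07-fold lower (1.66 to 2.60) in Y27. Ccn3 and Ccn6 had 0 to 3 reads and Ccn5 was not listed.

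In IWR1 over Y27, 0 of the 8 members passed 2-fold in either direction, against 2.90% of all genes on the lower side and 1.38% on the higher, and 7 of 8 were lower by any amount, against 49.9%. Counting intervals lay below 1 for 4 of 8, Tead1, Amotl2, Ajuba and Ccn1, against 16.1% of all genes, and above 1 for 0 of 8, against 16.3%. Tead1 was 1.22-fold lower (1.14 to 1.31) in IWR1, with a log2 difference of -0.29, or -0.11 with the trend removed, and Ajuba was 1.09-fold lower (1.02 to 1.16). Tead2 had a fold of 0.983 (0.917 to 1.05).

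Other genes known as YAP/TAZ targets, from a signature published for human cells less the members, were mostly below NT in both comparisons. Of 17, 16 were compared, and 13 were lower and 3 higher in IWR1, while 11 were lower and 5 higher in Y27, against 50.3% and 51.9% of all genes lower. At least 2-fold below NT were 2 genes in IWR1 and 1 in Y27, against 2.25% and 1.34% of all genes, and 0 were 2-fold above it in either. The list's median log2 difference was -0.24 in IWR1 and -0.36 in Y27. With the trend removed it was -0.37 and -0.29, against -0.03 and -0.07 over all genes. In IWR1 over Y27, unlike the members, 9 of the 16 were higher and 7 lower, against 49.9% of all genes lower. The median there was 0.11, or 0.16 with the trend removed, against 0.0014 and 0.038 over all genes. In that comparison 2 were at least 2-fold lower and 0 higher, against 2.90% and 1.38% of all genes. Igfbp3, a secreted binding protein for insulin-like growth factors, was at 1453 CPM in NT, 546 CPM in IWR1 and 1107 CPM in Y27. It was 2.66-fold lower (2.55 to 2.78) in IWR1 and 1.31-fold lower (1.27 to 1.36) in Y27, so that, as for Amotl2, IWR1 was lowest and Y27 lay between. Ccdc80, a matrix gene, had 21, 7 and 4 reads, 2.97-fold lower (1.22 to 8.27) in IWR1 and 5.18-fold lower (1.75 to 20.8) in Y27. Crim1, a transmembrane BMP-binding protein, was 1.68-fold lower (1.39 to 2.04) in IWR1, while its fold in Y27 was 1.24 (1.06 to 1.44).

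The Hippo kinases and their cofactors were more often above NT than below it, but this depended on the scale. Of 16 genes, all compared, 11 were higher and 5 lower in IWR1 and 12 higher and 4 lower in Y27, against 50.3% and 51.9% of all genes lower, and 2 were at least 2-fold higher in Y27, where 5.58% of all genes were. The medians of 0.12 and 0.21 became -0.05 and -0.09 with the trend removed, near the -0.03 and -0.07 of all genes. On that scale 7 and 6 of 16 were higher, against 5801 and 5256 of 12825 genes, and 0 passed 2-fold. Mob1b, a Lats cofactor, was at 11.5, 16.1 and 33.0 CPM in NT, IWR1 and Y27, 2.87-fold higher (2.15 to 3.87) in Y27, a log2 difference of 1.44 that became 0.66 with the trend removed. Taok1, a kinase that activates the Hippo kinases, was at 96.1, 160 and 202 CPM, with log2 differences of 0.73 and 1.07 that became -0.07 and -0.16. Lats1, the paralogue of Lats2, had log2 differences of 0.43 and 0.67 that became -0.04 and -0.04. Per length, Lats2 exceeded Lats1 by 1.98 times in NT, 1.32 times in IWR1 and 1.52 times in Y27. These ratios move with the length assigned to Lats2, which was 5020, 5213 and 4226 bases in NT, IWR1 and Y27. In scaled counts, Lats2 was at 47.6, 44.8 and 49.5 CPM and Lats1 at 34.7, 47.1 and 56.0 CPM.

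Of the 17 upstream regulators, 15 were compared, with medians of -0.08 in IWR1 and -0.07 in Y27. Fat4, a giant cadherin, had 6, 7 and 32 reads, 5.40-fold higher (2.23 to 15.8) in Y27. Strn, a scaffold of the phosphatase complex that turns off the Hippo kinases, had log2 differences of 0.46 and 0.93, or 0.21 and 0.57 with the trend removed, and Rassf1, which binds those kinases, of -0.53 and -0.89. Of the 4 adaptors that bind YAP or the Lats kinases, Amot, the founding angiomotin, was at 214, 134 and 259 CPM, 1.59-fold lower (1.45 to 1.75) in IWR1 and with a fold of 1.21 (1.12 to 1.31) in Y27, a log2 difference of 0.28 that became 0.02 with the trend removed. Amot was thus lowest in IWR1, like its relative Amotl2, while Amotl1 had a fold of 1.15 (1.01 to 1.31) in IWR1. Wtip, a LIM adaptor related to Ajuba, was 1.41-fold lower (1.21 to 1.63) in IWR1 and 1.32-fold lower (1.15 to 1.53) in Y27. Among the other TEAD and VGLL genes, Tead4, the TEAD of trophectoderm, was at 10.2, 4.49 and 6.10 CPM, 2.27-fold lower (1.41 to 3.83) in IWR1, a log2 difference of -1.03, or -0.91 with the trend removed. Tead3 and Vgll3 had log2 differences of -0.15 and -0.42 in IWR1 and -0.47 and -0.30 in Y27, which became -0.01 and -0.86, and -0.31 and -0.95, with the trend removed. In all these lists 55 genes were compared, with Ptpn14 counted once although it stands in 2 of them. Of the 55, 4 passed 2-fold on the lower side and 0 on the higher in IWR1, and 2 and 3 in Y27. Over all genes compared, the shares were 2.25% and 2.28% in IWR1 and 1.34% and 5.58% in Y27. Removal of the trend left 3 and 0 of the list genes in IWR1 and 2 and 1 in Y27. A pseudocount of 5 CPM left 2 and 0 in IWR1 and 0 and 2 in Y27.

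**Figure D5:**
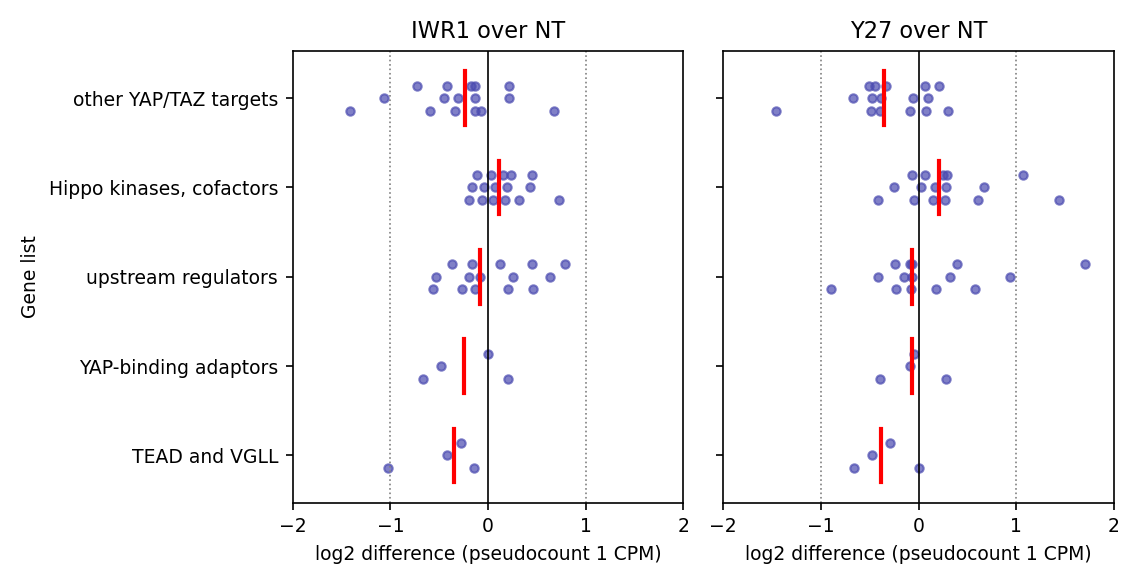
Log2 differences (pseudocount 1 CPM) of the compared genes of 5 pathway lists in IWR1 over NT (left) and Y27 over NT (right); each point is 1 gene, red bars are list medians and dotted lines mark 2-fold. The median of the other YAP/TAZ targets lies at -0.24 and -0.36 and that of the Hippo kinases at 0.12 and 0.21, before any trend is removed.

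The genes outside the lists whose pair of log2 differences over NT lay nearest to those of a target were sought among 7643 genes whose mean was 20 CPM or more. Nearest to Ccn1 were Gprc5c, an orphan receptor gene, at a distance of 0.12 and Scube3, which encodes a secreted protein, at 0.13. For Amotl2 they were Pim1, a kinase gene, at 0.11 and Fn1, the fibronectin gene, at 0.16. Within a distance of 0.2 there were 7 genes for Ccn1 and 6 for Amotl2. For Ankrd1 there were 587, the nearest being Arpc1a and Plp2, and for Ccn2, whose nearest were Trib1 and Syt11, 17, but with so few reads the pairs of these 2 members are mostly counting error. A distance over 3 libraries describes these libraries only.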

How the data were processed

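RNA-seq tables of 3 libraries were used, 1 for each of NT, IWR1 and Y27, grouped by the labels. Per the file headers, the columns are length, expected count and FPKM, with 1 row per Entrez gene. The expected counts deposited by the authors estimate reads per gene and are not normalized. The FPKM values deposited by the authors are counts per kilobase of the given length, scaled to the summed counts. Recomputed, 94.2%, 94.1% and 94.0% of them (NT, IWR1 and Y27, genes above 50 counts) came within 2%. Alignment software (Bowtie 0.12.2) and build (mm8) are those of the submitters' processing notes. The counting tool was not given in the sources used here. Symbols came from RefSeq (GRCm38.p6) and matched 17160 identifiers.

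A gene missing from a table was taken as 0. CPM were computed with edgeR 4.0.16 TMM factors (R 4.3.3), and the 12955 genes averaging 1 CPM or more were compared, with a pseudocount of 1 CPM and a 2-fold threshold on the log2 difference. Counts were rounded for exact conditional binomial 95% intervals of folds, and for exact Poisson 95% intervals of FPKM. The trend was a cubic surface in log2 length and in GC content of the matching GENCODE transcripts, found for 99.0% of the genes compared. Members and lists were chosen with earlier results of these data known. Named genes were the members, up to 3 genes per list with the largest absolute difference over NT, the nearest 2 genes to each of 4 members, and Axin2, T and Tagln as checks. Other check genes of the rule are not reported here. Other settings tried were scaling by library total, upper quartile or DESeq2 1.42.0 median of ratios, pseudocounts of 0.1 or 5 CPM, deposited FPKM, no filter or a mean of 5 CPM, thresholds of 1.5-fold and 3-fold, and trend removal. The steps were tested on simulated data. Software also included matplotlib 3.10.9, scipy 1.17.1, pandas 2.3.3 and numpy 2.4.6 under Python 3.11.15.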

Additional observations from a re-analysis of the deposited data

How the results depend on the processing

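The number of members at least 2-fold lower in IWR1 over NT, 2 as reported, was 1 with the trend removed and 0 at a 3-fold threshold. In Y27 over NT it was 0 as reported and 1 at a 1.5-fold threshold. In IWR1 over Y27 it was 0 as reported and 1 with scaling by library total, by median of ratios, on deposited FPKM, at 1.5-fold and with the trend removed. The member median ranged from -0.27 to -0.18 in IWR1 over NT. In Y27 over NT, -0.17 as reported, it was -0.31 over all 10 members with no filter, -0.11 with scaling by library total and -0.10 on deposited FPKM. In IWR1 over Y27, -0.13 as reported, it was -0.23 on deposited FPKM. Of 74 values of single members recomputed per comparison, 6, 7 and 2 left their counting interval in IWR1 over NT, Y27 over NT and IWR1 over Y27, and 0 of the values past 2-fold changed sign. The 74 include the values with no filter and with a mean of 5 CPM, which could not move because a filter leaves a gene's value unchanged. Those that left their interval did so with the trend removed, except Lats2 on deposited FPKM in Y27 over NT and in IWR1 over Y27. Values short of 2-fold changed sign in 1, 7 and 1 cases. Among them was Tead1, whose counting interval lay above 1. With the trend removed, Tead1 went from 0.17 to -0.14 in IWR1 over NT and from 0.45 to -0.03 in Y27 over NT. Yap1 and Wwtr1 in Y27 over NT went from -0.007 and -0.03 to 0.05 and 0.03 with scaling by library total. On deposited FPKM they were also at 0.05 and 0.03. The number of all genes past 2-fold depended on the pseudocount: in IWR1 over NT it was 463 lower and 543 higher at 0.1 CPM and 98 lower and 80 higher at 5 CPM, and in Y27 over NT 320 lower at 0.1 CPM and 42 lower and 340 higher at 5 CPM. No gene had more than 1 row, so the setting that keeps rows apart gave nothing to compute. No paired analysis was possible because each group had 1 library, and no library could be left out for the same reason. Depth limits Ccn2 and Ankrd1, and intervals cover counting error only.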

Other observations

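Over all 10287 compared genes with a promoter window, those with GGAATG or CATTCC differed little from the rest in IWR1 over NT: 27 of 1331 (2.03%) were at least 2-fold lower, against 2.02% of the 8956 without it. In Y27 over NT the shares were 1.80% (24 genes) and 1.04% (93 genes). For CTTTGAT the shares in IWR1 over NT were 4.71% (13 of 276 genes) and 1.95% of the 10011 without it, and in Y27 over NT 1.09% and 1.14%. Genes at least 2-fold higher in IWR1 over NT were also more frequent with CTTTGAT, at 3.62% against 2.23% without it. Of the 49 genes with both motifs, 3 (6.12%) were at least 2-fold lower in IWR1 over NT, against 2.00% of the 10238 without both. At least 2-fold higher were 4.08%, against 2.26%. Amotl2 is among the 3 lower genes, and Wwtr1 is among the rest of the 49. No other pair of motifs was examined, and this pair is the one in the Amotl2 window. The share of lower genes is therefore not independent of Amotl2. In Y27 over NT, genes with a CArG box were at least 2-fold lower in 4.11% of cases (6 of 146), against 1.09% of those without, and genes with the AP-1 motif in 3.03% (16 of 528), against 1.03%. These shares are descriptions of 3 libraries and were not tested.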
